A study of Mus musculus with 2 samples.

Results

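The genes described here encode the proteins of the cytosolic small ribosomal subunit in mouse hippocampus. They are the protein-coding genes whose symbol is Rps followed by a number and at most a letter a, l or x, together with Rpsa and Fau, with reads in both libraries. This gave 32 genes of the 18595 annotated genes detected. The tissue was the layer of the hippocampus of adult mice of strain B6NCrl, aged 6 months, with no treatment, transgene or altered allele given in the labels, and RNA was read as long single molecules. The labels describe C57BL/6 males, although their entry for sex reads as not collected. There was 1 group with 2 libraries, numbered as biological replicates 1 and 2, which come from separate biosamples that share 1 donor identifier, so a test between them measures only the spread between these libraries. Replicate 1 held 1330153 reads and replicate 2 held 1366252.

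The small subunit binds the messenger RNA, scans it for the start codon and checks each codon against its transfer RNA. Each of its proteins is present as a single copy per ribosome, and most are added to the ribosomal RNA in the nucleolus with the help of assembly factors. In vertebrates the mRNAs of these proteins start with a run of pyrimidines, through which the mTOR kinase and the RNA-binding protein Larp1 control their translation. In neurons they are also among the mRNAs found in dendrites and axons. Their genes have given rise to many intronless copies in mammalian genomes.

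Start-site windows of the 6 most abundant members are shown first, because the pyrimidine run is the sequence feature for which this family is known. Each spans 10 bases before and 10 bases from the RefSeq transcription start (GRCm38.p6), and capitals mark the longest run of C or T.
Rps6: gaagtcgggCCTCTTTTTCg
Rps2: gtcgagatctcgcgCTTCTT
Rps3: aagggTCgccgcgctgcgcg
Rps19: aaTCTCgcgagactcgacgc
Rps15: cagagCTCgcgataactgcg
Rps4x: gctgggcggagcaaCCCagg
The Rps6 window lies at chr4:86857358-86857377 on the minus strand and the Rps2 window at chr17:24720053-24720072 on the plus strand. The Rps6 run is 10 bases long and crosses the start, and the Rps2 run holds 6 bases up to the edge of the window, where it is cut off. In the other 4 windows the longest run is 2 to 4 bases. A run of 8 or more C or T on the transcribed strand was found in 7 of the 24 members with a RefSeq window (29.2%) and in 2441 of all 32851 windows (7.43%). On the opposite strand the same search found 0 of 24 and 8.45%. These are matches of letters around annotated starts, and RefSeq and GENCODE starts differ for some members. The Rps15 window (chr10:80292421-80292440) lies before the GENCODE gene, which starts at 80292453. The Rps19 window (chr7:24884582-24884601) lies inside the GENCODE gene, which starts at 24884371. A short run in a window therefore does not show that the mRNA lacks a longer one at its start. Ends of the deposited models follow annotated ends, so the reads do not place the starts themselves.

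The members lie on 14 chromosomes of GRCm38, 9 of them on chromosome 7. In the GENCODE M21 annotation, Rps6 (ENSMUSG00000028495.14) spans chr4:86854660-86857412 on the minus strand and Rps2 (ENSMUSG00000044533.15) spans chr17:24718116-24721929 on the plus strand. Rps15 (ENSMUSG00000063457.14) spans chr10:80292453-80294114 and Fau (ENSMUSG00000038274.13) chr19:6057844-6059524, both on the plus strand. Rps24 (ENSMUSG00000025290.17) spans chr14:24487125-24496959 on the plus strand. Small nucleolar RNAs, which guide the modification of ribosomal RNA, are annotated inside 9 members, 17 in all. Another gene overlaps 8 members on the opposite strand, and as the strand setting is not known, reads of such a pair may not be fully separated. New loci that TALON, the program that built the transcript models, places antisense to Rps3 had 17 and 13 reads.

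Together the 32 genes held 19375 reads in replicate 1, which is 1.46% of the library (95% Clopper-Pearson interval 1.44 to 1.48), and 21546 reads in replicate 2, which is 1.58% (1.556 to 1.598). Expressed in CPM, the read count scaled to a common library total, their summed level was 15168 ± 852 CPM (SD, n = 2). A long read stands for a single molecule, so CPM was not divided by length. Whether molecules of different lengths were read equally well was not tested, so levels of different genes are compared here as read counts only. Intervals cover counting error only. The median member stood at 480 CPM. The 48 large subunit genes summed to 24145 ± 1207 CPM with a median of 449 CPM per gene, and the 29 genes of the mitochondrial small subunit to 2491 ± 21.5 CPM with a median of 78.2 CPM. Of 15047 protein-coding genes detected, 1 member was among the 100 most abundant and 24 were among the 500 most abundant.

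**Figure D1:**
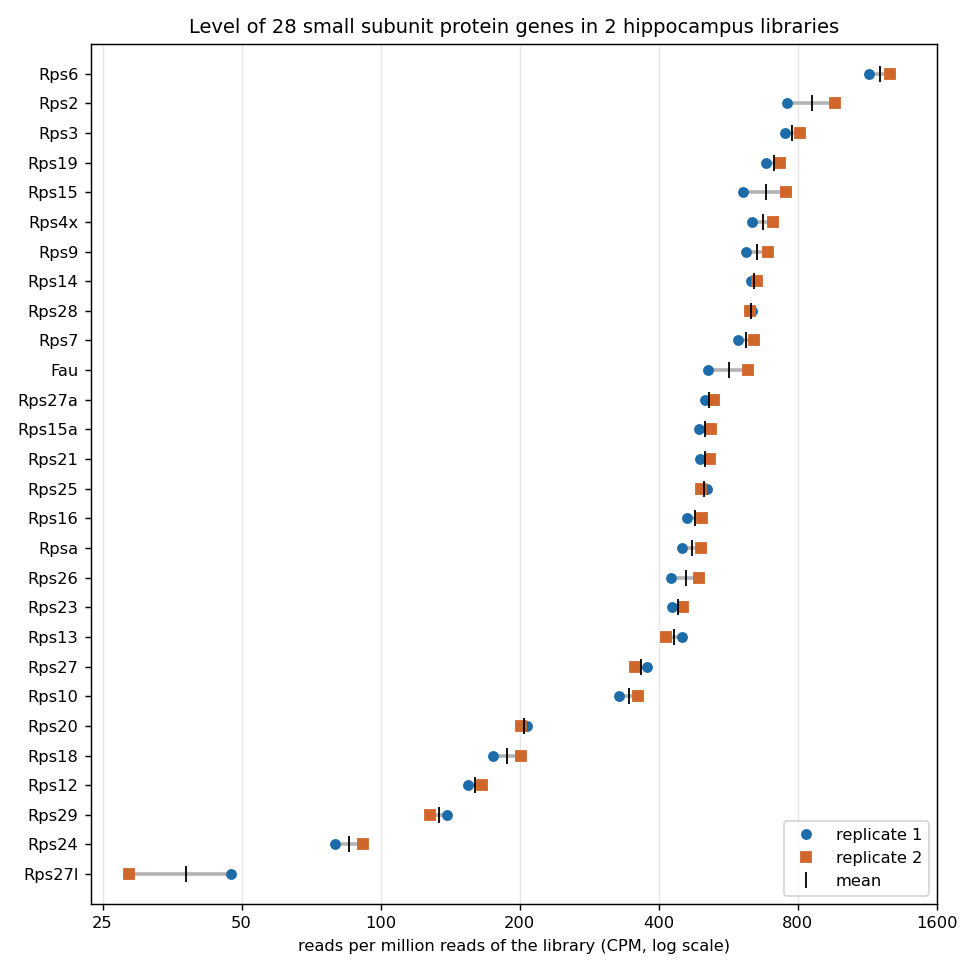
Level of 28 of the 32 genes in CPM (log scale), with replicate 1 as circles, replicate 2 as squares and the mean as a tick. Rps6 stands highest at 1142 and 1266 CPM and Rps27l lowest at 47.4 and 28.6 CPM, and for most genes the libraries lie close together.

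Rps6 encodes the protein whose phosphorylation by kinases such as Rps6kb1 is widely used as a sign of neuronal activity. It had the highest level of the family, with 1519 reads (1142 CPM) in replicate 1 and 1729 reads (1266 CPM) in replicate 2, a mean of 1204 ± 87.4 CPM (SD, n = 2). It was the only member among the 100 most abundant protein-coding genes, at rank 72.

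Rps2, Rps3 and Fau encode proteins at the channel through which mRNA enters the ribosome. Rps2 had 1010 reads (759 CPM) in replicate 1 and 1316 reads (963 CPM) in replicate 2, a mean of 861 ± 144 CPM. Rps3 had 997 reads (750 CPM) and 1105 reads (809 CPM), a mean of 779 ± 41.9 CPM. Fau encodes a ubiquitin-like protein fused to its ribosomal protein. It had 679 reads (511 CPM) and 852 reads (624 CPM), a mean of 567 ± 80.0 CPM. Rps6 lay above Rps2 by more than counting error in both libraries, whereas Rps2, Rps3 and the genes that follow them in the order of levels were not separated from their next neighbours in both.

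Rps15, at the head of the subunit near the decoding site, had 812 reads (611 CPM) in replicate 1 and 1032 reads (755 CPM) in replicate 2, a mean of 683 ± 103 CPM. For Rps9, which binds the ribosomal RNA early in assembly, the counts were 821 reads (617 CPM) and 944 reads (691 CPM), a mean of 654 ± 52.1 CPM. Rps14, a gene lost in a human myelodysplastic syndrome, had 845 reads (635 CPM) and 893 reads (654 CPM), a mean of 644 ± 12.97 CPM. Rps14 differed least between the libraries of these 3.

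Several members are mutated in Diamond-Blackfan anaemia, an inherited failure of red cell formation. Rps19, the gene most often affected, had 911 reads (685 CPM) in replicate 1 and 1003 reads (734 CPM) in replicate 2, a mean of 710 ± 34.8 CPM. Rps26 had 426 and 489 CPM, Rps7 595 and 643 CPM, Rps28 638 and 631 CPM, and Rps10 328 and 361 CPM. Rps24 and Rps29 belong to the same group by their disease link and stood far lower. Rps29 had 185 reads (139 CPM) and 175 reads (128 CPM), a mean of 134 ± 7.77 CPM, and Rps24 had 106 reads (79.7 CPM) and 125 reads (91.5 CPM), a mean of 85.6 ± 8.35 CPM. Levels of these 7 genes thus ran from 85.6 to 710 CPM.

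Rps27a encodes ubiquitin fused to a ribosomal protein, and it had 670 reads (504 CPM) in replicate 1 and 720 reads (527 CPM) in replicate 2, a mean of 515 ± 16.5 CPM. Rpsa, also known as the laminin receptor, had 597 reads (449 CPM) and 676 reads (495 CPM), a mean of 472 ± 32.5 CPM. Rps4x is the only member on the X chromosome. Its counts were 847 reads (637 CPM) and 968 reads (709 CPM), a mean of 673 ± 50.7 CPM. Rps4l, a related gene that the annotation lists as a transcribed processed pseudogene and that is no member, had 96 and 133 reads, a mean of 84.8 ± 17.8 CPM.

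Rps27 and Rps27l are paralogs, the second known as a target of p53. Their coding sequences of 252 bases each are identical at 192 positions (76.2%), and the first 60 coding bases are shown because they let reads of the paralogs be told apart, with capitals at the 18 positions that differ.
Rps27: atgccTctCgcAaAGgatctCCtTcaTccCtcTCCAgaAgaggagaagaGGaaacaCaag
Rps27l: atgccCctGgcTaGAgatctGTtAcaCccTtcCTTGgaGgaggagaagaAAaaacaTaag
Rps27 had 503 reads (378 CPM) in replicate 1 and 485 reads (355 CPM) in replicate 2, a mean of 367 ± 16.4 CPM. Rps27l had 63 reads (47.4 CPM) and 39 reads (28.6 CPM), a mean of 37.95 ± 13.3 CPM, the lowest of the family. The Rps27 count was 7.98 times that of Rps27l in replicate 1 and 12.4 times in replicate 2. Rps27l also had the widest relative spread, 35.1% of its mean, at few reads.

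Besides Rps29, Rps24 and Rps27l, Rps12 and Rps18 were also among the 6 lowest members. Rps18, a protein of the head of the subunit, had 233 reads (175 CPM) in replicate 1 and 275 reads (201.3 CPM) in replicate 2, a mean of 188 ± 18.5 CPM. The counts of Rps12, known in flies for its role in competition between cells, were 206 reads (155 CPM) and 227 reads (166 CPM), a mean of 161 ± 7.98 CPM. In replicate 2 the 275 reads of Rps18 equalled those of Rps20.

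The other members lay between these ends. Rps20 (204 ± 4.39 CPM), which is ubiquitinated when ribosomes collide, stood just above the lowest 6. Rps13 (432 ± 23.9 CPM), Rps23 (440 ± 17.9 CPM), a protein of the decoding centre, and Rps16 (479 ± 24.5 CPM) stood near the middle. Rps25 (501 ± 11.1 CPM), needed for initiation at certain viral RNAs, Rps21 (504 ± 18.3 CPM) and Rps15a (505 ± 21.9 CPM) were nearly level with each other. Of the 31 neighbouring pairs in the order of mean level, 4 had 95% intervals that did not overlap in either library, and 27 overlapped in at least 1 of them. Among these 4 were the steps from Rps6 to Rps2, from Rps29 to Rps24 and from Rps24 to Rps27l. Across the family the highest level was 24.1 times the lowest in replicate 1 and 44.3 times in replicate 2. Without Rps27l these ratios were 14.3 and 13.8. Levels and the length of the coding sequence had a Spearman correlation of 0.38 across the 32 genes, which is a description of these libraries, since genes are not replicates and copies elsewhere in the genome take part of some genes' reads. Coding sequences ran from 168 bases (Rps29) to 885 bases (Rpsa).

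The question of the only comparison is which levels differ between the libraries beyond counting error. A two-sided Fisher's exact test, adjusted by Benjamini-Hochberg over all genes with at least 10 reads, called 3 of the 32 members, Rps2, Rps15 and Fau, all of them lower in replicate 1. Over all 11891 genes tested, 5.95% were called, 3.38% lower and 2.56% higher in replicate 1. Genes with more reads are called more easily, and among the 4292 other genes within the range of the members' levels 11.6% were called, against 9.38% of the members. Rps2 showed a ratio of replicate 1 to replicate 2 of 0.788 (95% exact interval 0.726 to 0.856; Fisher's exact test, adjusted p = 1.060e-06). Rps15 had a ratio of 0.808 (0.736 to 0.887; adjusted p = 2.795e-04, Fisher's exact test). The ratio of Fau was 0.819 (0.739 to 0.907; adjusted p = 0.00351, Fisher's exact test). With multi-exon models alone as reads and total, Fau moved from a log2 ratio of -0.29 to -0.19 and was no longer called (adjusted p = 0.13, Fisher's exact test), while Rps2 and Rps15 were, 2 of 32 members against 3.97% of all genes. Fau has no single-exon reads, so its own counts were the same and only the total changed.

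Rps6 was close to the threshold at a ratio of 0.902 (0.842 to 0.967; adjusted p = 0.0571, Fisher's exact test). Rps27l had the largest ratio, 1.66 (1.10 to 2.54), with an adjusted p of 0.14 by Fisher's exact test on 63 and 39 reads. An unadjusted p under 0.05 was reached by 8 members, and by 16.2% of all genes tested. A lower CPM in replicate 1 than in replicate 2 was seen for 24 of the 32 members, against 53.9% of all genes tested, and the median log2 ratio of CPM + 1 was -0.11 for the members and -0.05 for all genes tested. Among the other genes within the members' range of levels, 60.3% were lower in replicate 1 and the median was -0.07. This tilt depended on the total: with multi-exon models alone, 19 of 32 members and 51% of genes were lower in replicate 1, and both medians were -0.01. With TMM or DESeq2 scaling 23 members were lower, at a median of -0.06 beside 50% of all genes. Among the 18 named members followed with multi-exon models and with TMM sizes, the direction turned for Rps14 (both settings) and Rps27a (multi-exon). For the large subunit, 8 of 47 genes tested were called, all 8 lower in replicate 1, with a median log2 ratio of -0.07. For the mitochondrial small subunit 1 of 29 was called, higher in replicate 1, with a median of 0.03. In edgeR's exact test, with a dispersion taken from these libraries, 0 of 32 members were called (0.42% of all genes) and 0 had an unadjusted p under 0.05. The smallest unadjusted p of a member in that test was 0.0916. On simulated counts the same test recovered 0% of 2-fold changes, so its lack of calls cannot show that the members' levels were alike.

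**Figure D2:**
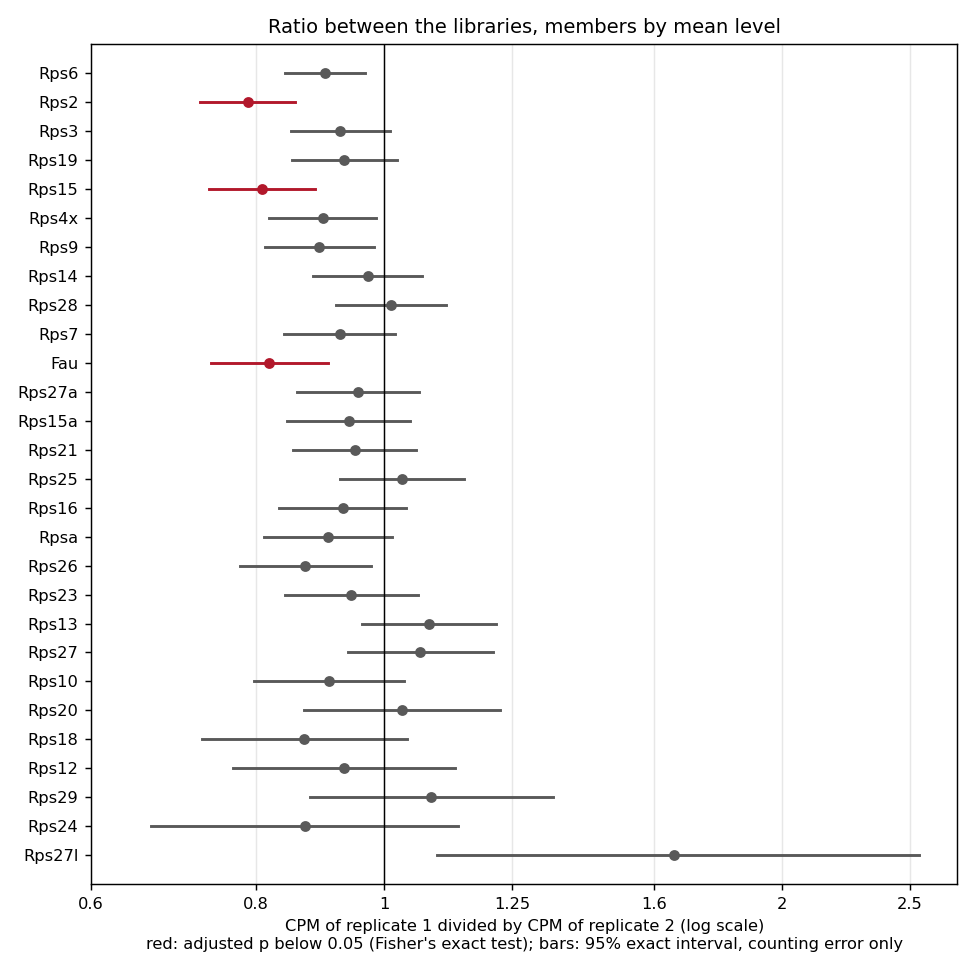
CPM of replicate 1 divided by CPM of replicate 2 for 28 members (log scale), ordered by mean level, with 95% exact intervals for counting error. Rps2, Rps15 and Fau, in red, passed the adjusted threshold of 0.05 in Fisher's exact test, and Rps27l at 1.66 lies farthest to the right.

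The libraries were not alike in the levels of cell type markers. The 12 choroid plexus markers, with all 12 detected in replicate 1 and 9 of them in replicate 2, summed to 14044 CPM in replicate 1 against 394 CPM in the other, and the defining marker Ttr had 15914 and 107 reads. In replicate 2, Kcne2, Otx2 and Aqp1 were at 0 reads, which allows up to 2.20 CPM. The 5 pan-neuronal markers summed to 5022 and 6215 CPM, the 7 oligodendrocyte markers to 5351 and 7128 CPM, the 6 astrocyte markers to 3517 and 3755 CPM, and the 7 microglia markers to 1116 and 1382 CPM. Within the astrocyte list the genes went both ways: Aldoc was called lower in replicate 1 (1844 and 2172 CPM) and Slc1a2 higher (611 and 515 CPM; adjusted p = 0.0206, Fisher's exact test). The part of these differences in the lower level of Rps2, Rps15 and Fau in replicate 1 was not tested. In bulk tissue, fewer cells of a type and less RNA per cell cannot be told apart. Dentate granule and CA1 markers were present in both libraries, at 565 and 700 CPM and at 244 and 306 CPM.

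Reads of the members were nearly all spliced. In replicate 1, 19 of 19375 reads were single-exon (0.0981%, 0.0591 to 0.153), and in replicate 2 the count was 37 of 21546 (0.172%, 0.121 to 0.237). Over all annotated genes, those without introns included, the share was 19.9% and 16.6%. Over the large subunit genes it was 0.294% and 0.202%. The single-exon reads of the small subunit genes lay in 5 members, and the highest share was 2.26% for Rps3. Annotated models held 94.1% and 94.2% of members' reads, against 70.4% and 72.6% over all annotated genes. Incomplete matches to an annotated transcript made up 3.78% and 3.58%, against 14.7% and 14.1%. The large subunit genes had much the same make-up, with 93.6% and 94.2% of reads on annotated models. Annotated models that keep an intron held 0.728% and 0.678% of members' reads, close to 0.716% and 0.696% over all annotated genes. Annotated targets of nonsense-mediated decay, the pathway that removes mRNAs with early stop codons, held 20 and 11 reads of members, 18 and 9 of them on Rps19.

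**Figure D3:**
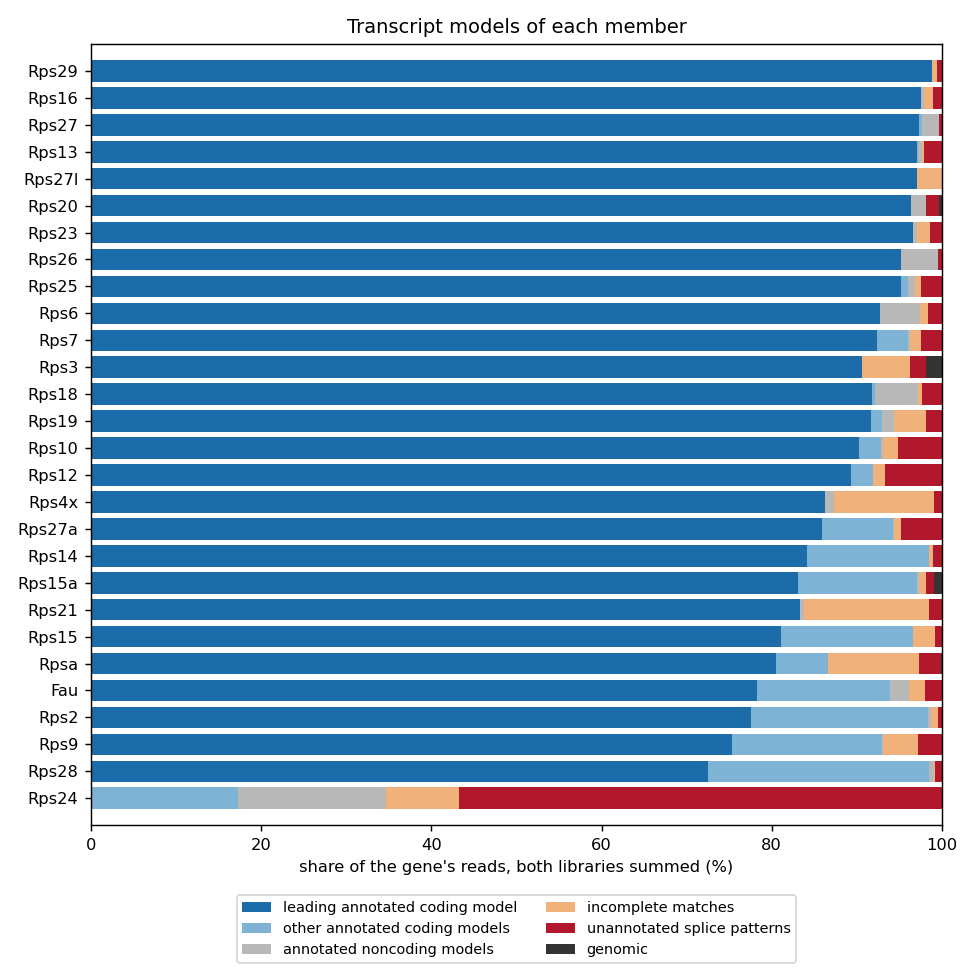
Share of the reads of 28 members, both libraries summed, on each gene's leading model where that is annotated and coding, on other annotated coding models, annotated noncoding models, incomplete matches, unannotated splice patterns and genomic reads. Of the 28 genes shown, Rps24 at the bottom is the one whose leading model is not annotated, so its coding models are all drawn as other models.

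For 30 of the 32 members the leading model, the one with most reads, was an annotated coding transcript. It held a median of 90.9% of reads over both libraries, and at least 90% in 17 members, with the highest share in Rps29 at 98.9%. Its share differed between the libraries for 0 of 32 members in Fisher's exact test, where 3.19% of 6262 genes tested were called. Rps19, Rps23 and Rps28 had an unadjusted p under 0.05, and the smallest adjusted p was 0.316 by Fisher's exact test. The single-exon share differed for 0 of the 30 members tested, against 1.46% of 6566 genes, and 0 members had an unadjusted p under 0.05 in that Fisher's exact test. Rps14 and Rps28 were left out of it because the longest annotated transcript of each has 1 exon. The tests of shares could detect large shifts only: on simulated data, 51.5% of genes with a share moved from 80% to 60% were recovered.

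Rps24 was the member farthest from its annotation. It encodes a protein whose last residues depend on small alternative exons near the end of the gene on chromosome 14. Its leading model, with 51 reads in replicate 1 and 61 in replicate 2, is unannotated. In this model an exon of 36 bases at chr14:24494052-24494087 (GRCm38, plus strand) joins exon 4 to the last exon. A first annotated form starts an exon at the same place but ends it after 18 bases and then uses an exon of 20 bases, which a second annotated form uses alone. In Rps24-210 exon 4 is joined to the last exon directly. The annotated stop codon differs between the 3 forms, which gives coding sequences of 393, 390 and 399 bases without the stop codon. The sequences of these ends are shown with the stop codons in capitals, or for the intron after the longer exon its first bases in capitals.
Rps24 annotated 18 bases: aaaTGAaatacctagcag
Rps24 further 18 bases: gtactgccattgggcacg
Rps24 intron after them: GTgtggggtg
Rps24 20-base exon: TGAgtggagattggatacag
Rps24 start of last exon: ccaaaggagTAGatctgcgg
The annotated stop codon of the first form, at chr14:24494055-24494057, lies in the bases that the longer exon shares. The further 18 bases begin with the gt of the annotated donor, and the longer exon ends just before another gt.

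Among Rps24 reads joined to the last exon, 63 of 86 in replicate 1 fell in the group of the 36-base exon (73.3%, 95% Clopper-Pearson interval 62.6 to 82.2). In replicate 2 these were 74 of 103 (71.8%, 62.1 to 80.3). This group takes in any exon from the same start that runs past the annotated 18 bases and ends before the 20-base exon. The leading model, with the 36-base exon, gave 51 and 61 of its reads. The direct join was used by 15 reads (17.4%) and 21 reads (20.4%). Both annotated patterns with the 20-base exon had 0 reads in each library, which by the interval's upper bound allows up to 4.199% and 3.518%. Other joins made up 9.30% and 7.77%. The order of these choices was the same in both libraries and the intervals overlap throughout. A further 20 of 106 and 22 of 125 reads kept an intron or ended before the last exon. Retained-intron models held 17.9% and 16.8% of Rps24 reads, the highest share of any member in both libraries. As models of the annotated class carry annotated ends, these reads need not reach as far as the annotated transcripts do.

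Rps28 and Fau each had a choice between splice sites a few bases apart. In Rps28, on chromosome 17, annotated transcripts use either of 2 donors of the last intron that lie 4 bases apart, after the stop codon at chr17:33823208-33823210, so the coding sequence of 207 bases is the same. The donor that gives the longer exon was used by 601 of 849 reads in replicate 1 (70.8%, 67.6 to 73.8) and by 654 of 862 in replicate 2 (75.9%, 72.9 to 78.7). The donor that gives the shorter exon was used by 29.1% and 23.9%. In Fau, on chromosome 19, annotated transcripts use either of 2 acceptors of the first intron that lie 3 bases apart, before the start codon at chr19:6058251-6058253. The acceptor that gives the longer exon was used by 556 of 679 reads (81.9%, 78.8 to 84.7) and by 688 of 852 (80.8%, 77.9 to 83.4), and the other by 15.3% and 16.1%. The sequences are shown with the bases found only in the longer exon in capitals.
Rps28 donor of the last intron: atcttgcagctgGTGGgtaagtgg
Fau start of exon 2: TAGccaacatgcagctcttt
In Rps28 each donor is followed by gt, and in Fau the 3 extra bases end in ag, the letters at which acceptors end.

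**Figure D4:**
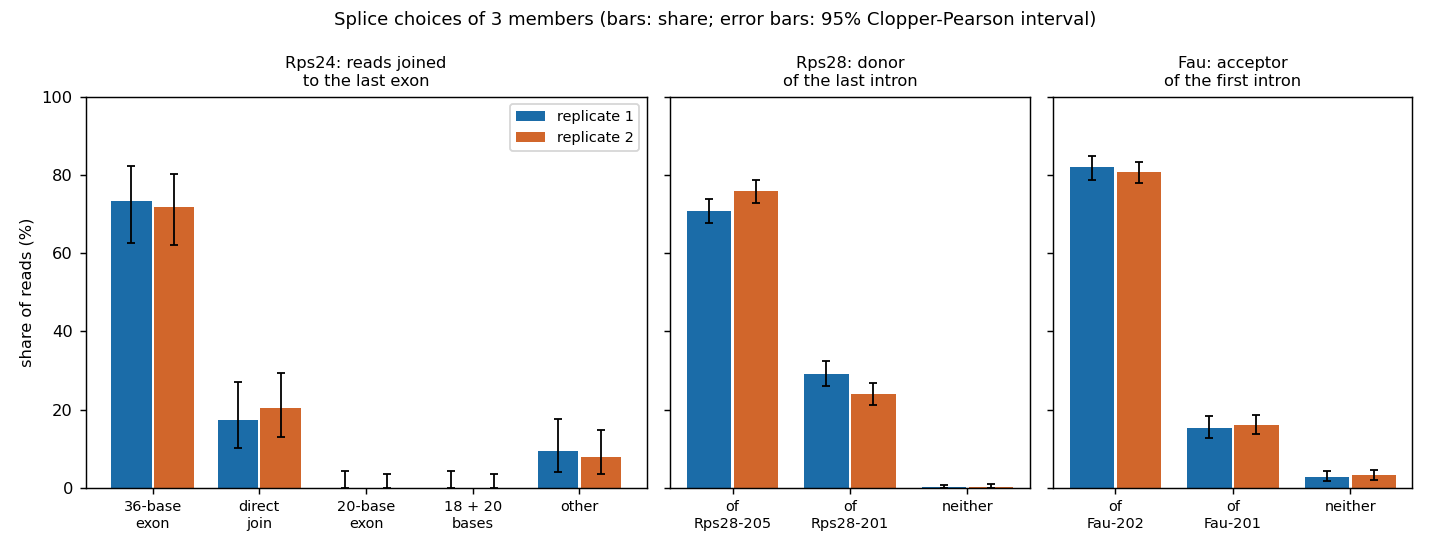
Share of reads in each library for the end of Rps24, the donor of the last intron of Rps28 and the acceptor of the first intron of Fau, with 95% Clopper-Pearson intervals and, for Rps28 and Fau, the transcript with the longer exon on the left. The 36-base exon of Rps24 stands above 70% in both libraries, and the annotated patterns with the 20-base exon are at 0.

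In several members a model without the first intron was the second in rank. Its share of the gene's reads was highest in Rps2, at 20.3% in replicate 1 and 21.2% in replicate 2. It followed in Rps9 at 19.1% and 16.3%, in Rps15 at 14.4% and 16.4%, and in Rps14 at 14.4% and 12.7%. In Rps15a it was 14.9% and 13.2%, and in Rps21 14.4% and 14.6%. The share was over 10% in 6 members in each library, with a median over members of 3.76% and 2.70%. Reads that keep the first intron and reads cut short at the 5′ end cannot be told apart in these tables, because a shortened read can be placed on an annotated transcript with the same remaining introns, wherever that transcript starts. The Rps21 model is unannotated and its deposited start lies in the first exon, so as deposited it spans the first intron, while how far each of its reads reaches is not in the tables used here.

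Unannotated splice patterns were found in 31 members, as 242 models with 388 and 441 reads. Only 36 of these models, in 22 genes, were seen with 2 or more reads in each library, and in 26 of the 36 the unannotated splice site lay within 12 bases of an annotated one, 14 of them at a distance of 4 bases. After the Rps24 model, those with most reads were models of Rps7 (18 and 18 reads, 2 bases away), Rps3 (13 and 20 reads, 4 bases), Rps6 (13 and 16 reads, 3 bases) and Rps25 (12 and 11 reads, 3 bases). Each is a small part of its gene's reads.

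Many reads close in sequence to members were counted on other genes. A gene was taken as a copy of a member when at least 50% of its 25-base words occur in annotated transcripts of that member. There were 60 such genes with reads, 54 of them annotated as pseudogenes, with 3092 reads in replicate 1 (2325 CPM) and 3357 in replicate 2 (2457 CPM). Of these reads 99.8% in each library were single-exon, in contrast to the members' own. Copies held 13.8% and 13.5% of all reads on members and copies together. Reads of the copy's own RNA and reads of the spliced mRNA of the member placed on the copy cannot be told apart from these counts.

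Copies were unevenly spread over the family. For Fau, the pseudogene Gm9843 at chr16:76403251-76403652, all of whose words occur in Fau, had 595 and 665 reads, or 46.7% and 43.8% of the sum. For Rps12 the share was 38.5% and 42.4%, mostly on Rps12-ps3 on chromosome 19, which the annotation lists as protein-coding, with 112 and 133 reads. Rps23-ps1 on chromosome 3 had 297 and 327 reads, and copies made up 34.3% and 34.7% for Rps23. Rps27rt, an intronless protein-coding gene on chromosome 9 whose name the rule does not take in, had 245 and 208 reads, and copies made up 35.1% and 31.98% for Rps27. Rps13-ps2 had 231 and 249 reads (28.0% and 30.5% for Rps13) and Gm14303 had 65 and 68 reads (26.0% and 28.0% for Rps29). In 9 members the share was over 20% in both libraries, Rps2 among them.

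In 10 members the share was under 1% in both libraries, and 5 of these, Rps3, Rps21 and Rps27l among them, had no copy with reads. The low levels of Rps12 and Rps29 are thus levels beside copies with many reads, while those of Rps20 and Rps27l are not. Among the members called lower in replicate 1, Rps15 had almost no copies (0.123% and 0.386%), and the copies of Rps2 had 286 and 376 reads, which is 22.1% and 22.2% of the sum.

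**Figure D5:**
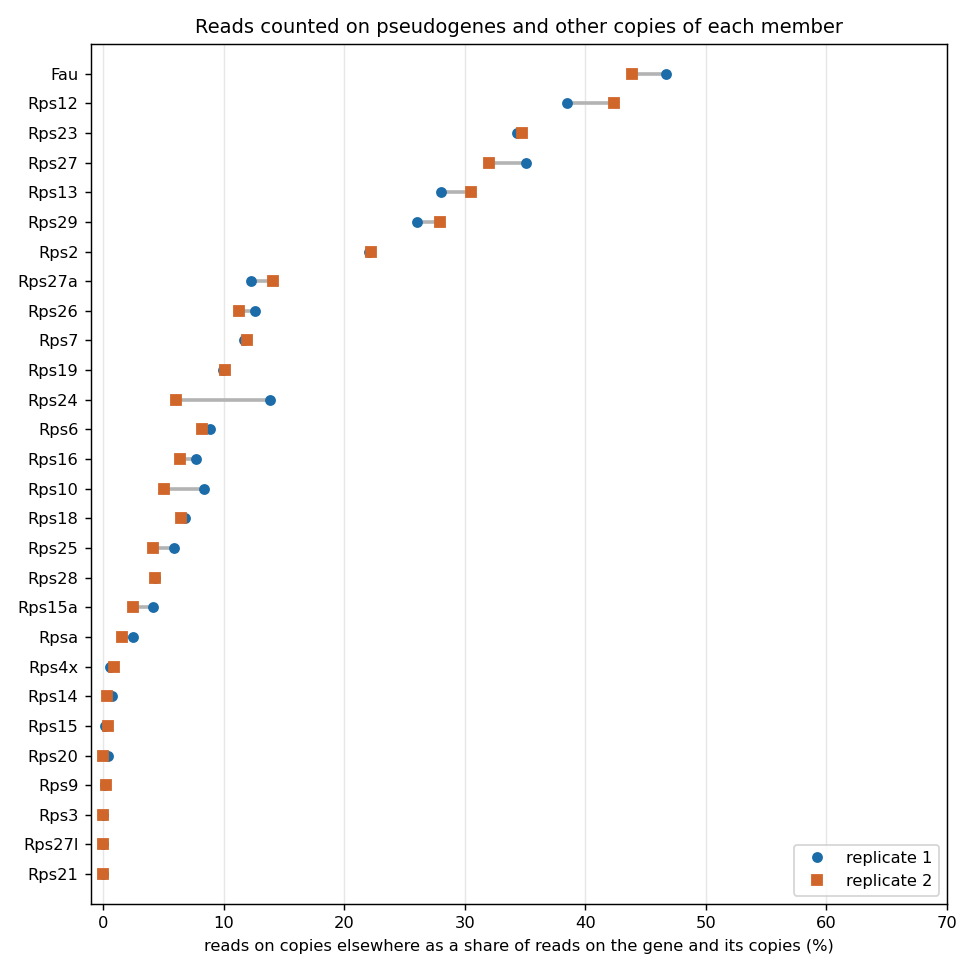
Reads counted on copies elsewhere in the genome as a share of the reads on each of 28 members and its copies, with replicate 1 as circles and replicate 2 as squares. Of the 28 genes shown, Fau stands highest at 46.7% and 43.8%.

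Genes of the small ribosomal subunit that the name rule leaves out were measured in the same way. Rps3a1, a protein-coding member of the subunit by function, had 1374 and 1410 reads, a mean of 1032 ± 0.667 CPM, second only to Rps6. Rack1, a scaffold protein on the head of the subunit, had 238 and 242 reads, a mean of 178 ± 1.27 CPM. With Rps3a1 and the other protein-coding Rps genes outside the pattern, the summed level was 16425 CPM.

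The 46 listed factors of small subunit assembly were all detected and all tested, with a median of 32.3 CPM per gene. Nop58, a core protein of the particles that methylate ribosomal RNA, was the only factor of the 46 called, against 5.95% of all genes tested, with 70 reads in replicate 1 and 39 in replicate 2, a ratio of 1.84 (1.23 to 2.80; adjusted p = 0.0375, Fisher's exact test). None was called lower. The factors with most reads were Aamp (409 ± 40.0 CPM) and Snu13 (283 ± 3.27 CPM). Nob1, the nuclease that makes the final cut of the small subunit's RNA, stood at 43.0 ± 5.48 CPM, and Fbl, the methyltransferase of the same particles as Nop58, had 4 and 6 reads. The median log2 ratio of the list was -0.08, beside -0.05 over all genes tested.

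Of the 24 listed genes that control the members' mRNAs or act on the subunit, 23 were found with reads under the listed symbol and 22 tested. The symbol Znf598 matched no gene with reads. Genes were looked up by symbol alone, so this does not show that the gene was absent. Eif1, which sets the accuracy of start codon choice, was the only gene of the 22 called, against 5.95% of all genes tested. It had 459 reads (345 CPM) in replicate 1 and 682 reads (499 CPM) in replicate 2, a ratio of 0.691 (0.613 to 0.779; adjusted p = 7.476e-08, Fisher's exact test). Cnbp, which binds pyrimidine-rich starts of these mRNAs, was the most abundant of the list at 840 ± 9.27 CPM. Mtor had 28 and 46 reads, Larp1 14 and 24 reads and the kinase Rps6kb1 68 and 60 reads. Kinases and Larp1 were therefore measured on few reads, where only large differences could be called. The list's median log2 ratio was -0.10, beside -0.05 over all genes tested, and 16 of 22 tested genes had the lower CPM in replicate 1, against 53.9% of all genes.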

How the data were processed

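Members and gene lists were chosen with earlier results of these data known. Hippocampus RNA of 2 libraries was measured by long-read sequencing. Deposited tables hold raw counts of reads per transcript model, with no normalization by the authors, made with TALON per the file headers, on mm10 and GENCODE M21 per the deposited description files. Aligner, TALON version, platform, strand setting and filters: not given in the sources used here. Model lengths and exon coordinates in the deposited files were used as given. A gene's count was the sum over its models of every class. The total for CPM was the whole library. Genes with at least 10 reads over both libraries entered a two-sided Fisher's exact test against the rest of each library, and shares were tested where each library had at least 20 reads of the gene, with Benjamini-Hochberg adjustment at 0.05. Ratios have conditional exact 95% intervals, and log2 ratios a pseudocount of 1 CPM. Models were matched by chromosome, strand and introns. A count of 0 allows 3 reads, which is 2.26 CPM in replicate 1 and 2.20 CPM in replicate 2. The named genes were the 8 highest and 6 lowest members, those called, the ubiquitin fusions, paralogs, Rpsa, Rps6, Rps24, members with a leading model under 70%, and the 5 unannotated models with most reads; copies, Rps28 and Fau splice sites were added after their values were seen, as was the range of levels used beside the members. Start-site windows come from RefSeq (GRCm38.p6) and matched 24 of 32 members; other sequences come from GENCODE M21 transcripts. Counts were first simulated with counting error alone, with 200 genes changed 2-fold among 11830 tested. On these, Fisher's exact test recovered 64%, with 4 unchanged genes called. The edgeR exact test ran on separate counts of 11832 genes, simulated with the dispersion estimated from the libraries, and recovered 0%. The 64% and 0% thus come from unlike simulations. The 4 calls do not measure false calls under the spread between the real libraries. The self-test of shares ran on 7092 genes, also with counting error alone. Tools were Python 3.11.15 with pandas 2.3.3, numpy 2.4.6, scipy 1.17.1 and matplotlib 3.10.9, and R 4.3.3 with edgeR 4.0.16 and DESeq2 1.42.0, the last for size factors alone. Some members entered every fit, sum and count but are not reported here by name.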

Additional observations from a re-analysis of the deposited data

How the results depend on the processing

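Rps2 and Rps15 were called under each count setting of Fisher's exact test (TMM sizes, DESeq2 size factors, no minimum, 50 reads, without genomic and incomplete models, multi-exon models alone), with 2 to 4 members called. Fau was lost with multi-exon models alone, and Rps6 was added at 50 reads. edgeR's exact test (0 members, 50 genes of 11891 against 707) recovered no simulated 2-fold change. The leading model and single-exon tests called 0 members under every setting, while all genes called went from 200 to 7 with annotated models alone and from 96 to 418 without the genomic class. The summed level of 15168 CPM ranged from 14566 to 15770 CPM without either library. It was 14282 CPM with annotated models alone and 17206 CPM over protein-coding nuclear reads. With other protein-coding Rps genes it was 16425 CPM, with Rps-named pseudogenes 16347 CPM and, chosen after seeing the data, with all copies 17559 CPM. Of 72 levels of 18 named members under alternatives, 22 moved by more than the spread between libraries, 14 of them with the denominator. Of 72 log2 ratios, 68 kept their direction and call and 1, that of Fau, lost its call. The other 3, of members not called, turned: Rps14 from -0.04 to 0.05 with multi-exon models alone and 0.01 with TMM sizes, and Rps27a from -0.07 to 0.03 with multi-exon models alone. Chosen after seeing the data, the count of members lower in replicate 1 went from 24 to 19 with multi-exon models alone and to 23 with TMM or DESeq2 sizes. No paired analysis was possible because there is 1 group. Depth limits Rps27l (63 and 39 reads) and Rps24 (106 and 125 reads) most.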
